A study of Arabidopsis thaliana with 4 samples.

Results

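MicroRNAs (miRNAs) of Arabidopsis that entered the miRNA registry late, with family numbers of 1800 or more, were followed on 4 single-colour arrays. The members were the miRNA probes numbered 1800 or higher, 48 of 213 miRNAs, from 38 families. The bright miR5021, in that range by its number, was left out, so the choice was not blind to level. Each array holds the small RNA of seedlings of 1 group: wild type without NaCl (WT_control), wild type on 100 mM NaCl (WT_salt), and plants expressing the ABR17 cDNA as a transgene, without NaCl (ABR17_control) or on 100 mM NaCl (ABR17_salt). All seedlings were raised on Murashige and Skoog medium, and the promoter of the transgene and the number of transgenic lines are unknown here. The labels give 2 different durations of growth, so none is stated. ABR17 is a pea protein whose transcript responds to abscisic acid. Whole seedlings were used, so fewer cells making a miRNA and less of it per cell cannot be told apart, and the array has no messenger RNA probes with which to check the tissue. With 1 array per group, no difference below has a replicate check and no test between conditions was possible.

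A plant miRNA is cut by DICER-LIKE enzymes from a hairpin precursor as a duplex of a 5p and a 3p strand, and 1 strand usually stays in ARGONAUTE and guides the cleavage of matching transcripts. The registry numbers families in the order in which they were submitted, so low numbers include the abundant families shared by flowering plants. High numbers in Arabidopsis came mostly from deep sequencing of small RNAs, and many such families are young, known from few species and present at low levels. Among the members, miR2111 is an exception: it is shared by many flowering plants, accumulates when phosphate is short, moves from shoot to root, and in Lotus japonicus represses the nodulation regulator TOO MUCH LOVE.

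The 5 members that were detected on any array carry the results, and their target sequences as the array files list them are shown 5′ to 3′ with the seed, bases 2 to 8, in capitals.
miR2936: cUUGAGAGagagaacacagacg
miR3440b-5p: uUUUCUUGgcccauccacuuc
miR5018: uUAAAGCUccaccaugaguccaau
miR2933a: gAAAUCGGagaggaaauucgcc
miR4239: uUUGUUAUuuucgcaugcucc
They share no seed with one another. RefSeq's gene table for the TAIR10.1 assembly lists their genes as AT4G04125 (MIR2936), AT3G03625 (MIR3440b), AT1G08783 (MIR5018), AT1G06623 (MIR2933a) and AT4G07000 (MIR4239). By symbol, 44 of the 48 members could be matched to that table, in 37 genes.

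Every miRNA was printed at 12 repeat spots, and the 1120 blank spots of an array give its background. The blank mean was 231 ± 22.2 and 84.8 ± 5.52 for WT_control and WT_salt and 111 ± 13.2 and 86.5 ± 3.92 for ABR17_control and ABR17_salt (intensity, SD over the blanks). A spot was taken as above background when it exceeded the blank mean plus 3 blank SD, which was 298, 101, 151 and 98.3 in the same order. A miRNA was called detected where at least 50% of its 12 spots did so. Brightness depends on the probe as well as on abundance, and with 1 array per group the spread between plants is unknown.

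Most late-named miRNAs went undetected on each of the 4 arrays. Detected were 1 of 48 on WT_control and 3 on WT_salt, against 0 on ABR17_control and 4 on ABR17_salt. Altogether 5 (10.4%) were found on 1 or more arrays, and 43 on none. No member was detected on all 4 arrays, and none on ABR17_control. That rests on leaving out miR5021, whose medians of 1216, 209, 232 and 412 from WT_control to ABR17_salt passed the threshold of each array. The 86 miRNAs numbered between 500 and 1800 keep their brightest probe (median 4537 on WT_control). Among them 7 (8.14%) were detected on at least 1 array, a similar share. Of the 78 miRNAs numbered under 500, 50 (64.1%) were detected. Members make up 22.5% of the miRNAs on the array. They supplied 2.56% of the 39 miRNAs detected on WT_control, 5.56% of the 54 on WT_salt and 6.78% of the 59 on ABR17_salt. Of the 30 detected on ABR17_control they supplied 0%. Among the other 165 miRNAs, 23.0%, 30.9%, 18.2% and 33.3% were detected from WT_control to ABR17_salt. The fewest on ABR17_control and the most on ABR17_salt were thus not particular to the members.

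Counted by spots, 15 of the 576 member spots (2.60%) lay above the threshold on WT_control and 124 (21.5%) on WT_salt, with 1 (0.174%) on ABR17_control and 63 (10.9%) on ABR17_salt. The same threshold was passed by 0.625%, 0.357%, 0.804% and 0.268% of the blank spots. The share of WT_salt therefore stood well above its blanks, and that of ABR17_control below them. For the miRNAs numbered between 500 and 1800 the shares were 4.07%, 22.8%, 2.62% and 6.98%, so the high share on WT_salt was not confined to the late-named miRNAs. The miRNAs numbered under 500 reached 45.6%, 59.8%, 34.6% and 60.8%.

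**Figure D1:**
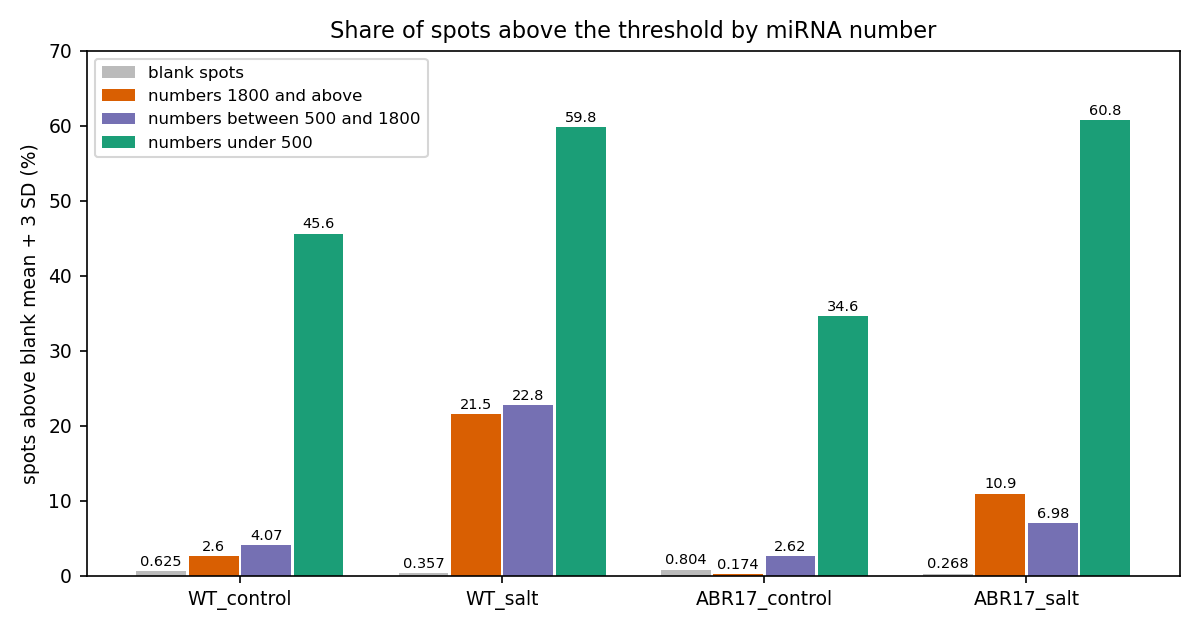
Percent of spots above the blank mean plus 3 blank SD on each array (x axis), for blank spots and for miRNAs in 3 ranges of family number, 1800 and above without miR5021. Late-named miRNAs reach 21.5% on WT_salt and 0.174% on ABR17_control, near the miRNAs numbered between 500 and 1800 and far from those numbered under 500.

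The spots above the threshold on WT_salt were not spread evenly over the array. The set of 213 miRNAs is printed once in each of 12 blocks, arranged as 4 bands of rows by 3 strips of columns. On WT_salt, 96 of the 124 member spots above the threshold (77.4%) lay in the left strip, against 10 in the middle strip and 18 in the right one. The median member spot read 101 in the left strip, 93.5 in the middle and 96.5 in the right, while the blanks there had medians of 86.8, 82.7 and 83.9. In all, 45 members were undetected on WT_salt: 40 of them had at least 1 spot above the threshold, and for 28 of these 40 every such spot was in the left strip. On ABR17_salt the left strip held 32 of 63 such spots, and on WT_control the strips held 6, 4 and 5.

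Members and blanks also stood differently to each other from array to array. In each of the 12 blocks the median member spot exceeded the median blank on WT_salt, by 9.15 to 15.7, and on ABR17_salt, by 2.33 to 5.81. On WT_control it did so in 8 blocks. On ABR17_control it did so in none, where the members lay 6.26 to 14.5 below the blanks and 47 of 48 member medians were under the blank mean. Absence of detection on ABR17_control thus rests on a threshold that lay far above the members, and a level under it was not detectable there. The shift was not confined to members. For miRNAs numbered between 500 and 1800 the median spot read 97.3 on WT_salt and 100.7 on ABR17_control, against blank medians of 84.7 and 109.8.

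**Figure D2:**
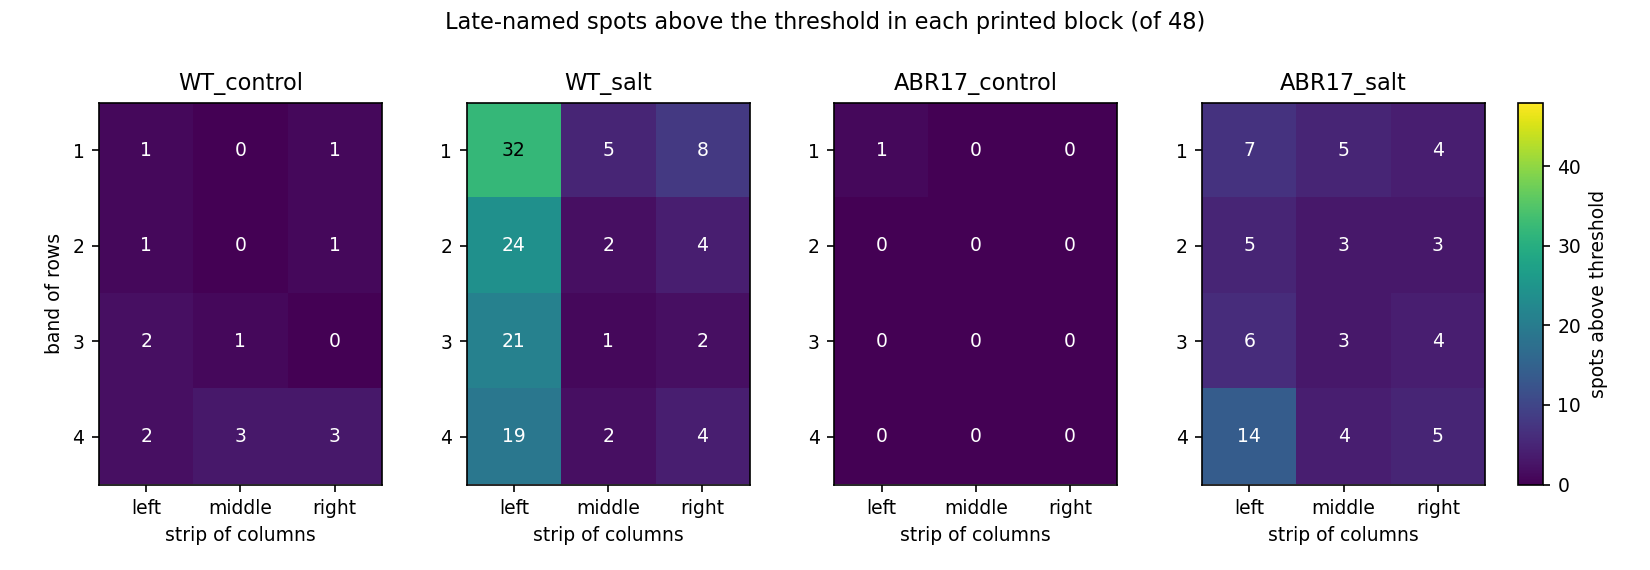
Number of the 48 late-named spots in each printed block that lay above the threshold, by band of rows (y axis) and strip of columns (x axis), for each array. On WT_salt the left strip holds 32, 24, 21 and 19 such spots from band 1 to band 4, and no other block of that array holds more than 8.

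The member with the highest median on 3 arrays was miR2936. Its 12 spots ran from 279 to 345 on WT_control (median 308), from 98.5 to 120 on WT_salt (median 113), from 103 to 117 on ABR17_control (median 111) and from 99.8 to 125 on ABR17_salt (median 114). Of these, 8, 11, 0 and 12 spots passed the threshold, so it was detected on 3 arrays. It ranked first of the 48 members on WT_control, WT_salt and ABR17_control and second on ABR17_salt, and held ranks 37, 36, 43 and 41 among all 213 miRNAs. It was above the median member of the same block in 12 of 12 blocks on every array, ABR17_control included. It was also the 1 member whose median on ABR17_control (111.5) exceeded the blank mean (111.2).

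The 5p strand of miR3440b came second on 3 arrays and first on ABR17_salt. Its spots ran from 95.6 to 114 on WT_salt (median 104, with 8 above the threshold), from 100 to 111 on ABR17_control (median 107, with 0 above) and from 112 to 133 on ABR17_salt (median 122, with 12 above). On WT_control they ran from 257 to 744 with a median of 273, and the 744 was the 1 spot above the threshold. Every spot on ABR17_salt thus read above every spot on ABR17_control, where miR3440b-5p was not detected. These are intensities of separate arrays, on which members and blanks stood differently to each other, so no size is read from them.

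The 24-base miR5018 held rank 3 on WT_control, WT_salt and ABR17_control and rank 5 on ABR17_salt. Its spots ran from 223 to 298 on WT_control (median 272), from 93.1 to 111 on WT_salt (median 102), from 101 to 116 on ABR17_control (median 105) and from 92.2 to 103 on ABR17_salt (median 97.6). With 6 of 12 spots above the threshold it was just detected on WT_salt, and with 5 of 12 it just missed on ABR17_salt. It is the longest member.

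Both other detected members were called on ABR17_salt alone. The spots of miR2933a there ran from 101 to 110 (median 106) and all 12 passed the threshold. Elsewhere its medians were 251 on WT_control, 98.6 on WT_salt and 103 on ABR17_control, with 0, 3 and 0 spots above. For miR4239 the spots on ABR17_salt ran from 94.1 to 108 (median 99.1) and 6 of 12 passed, the fewest that the rule admits. Its other medians were 236, 97.9 and 103, with 0, 4 and 0 spots above.

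**Figure D3:**
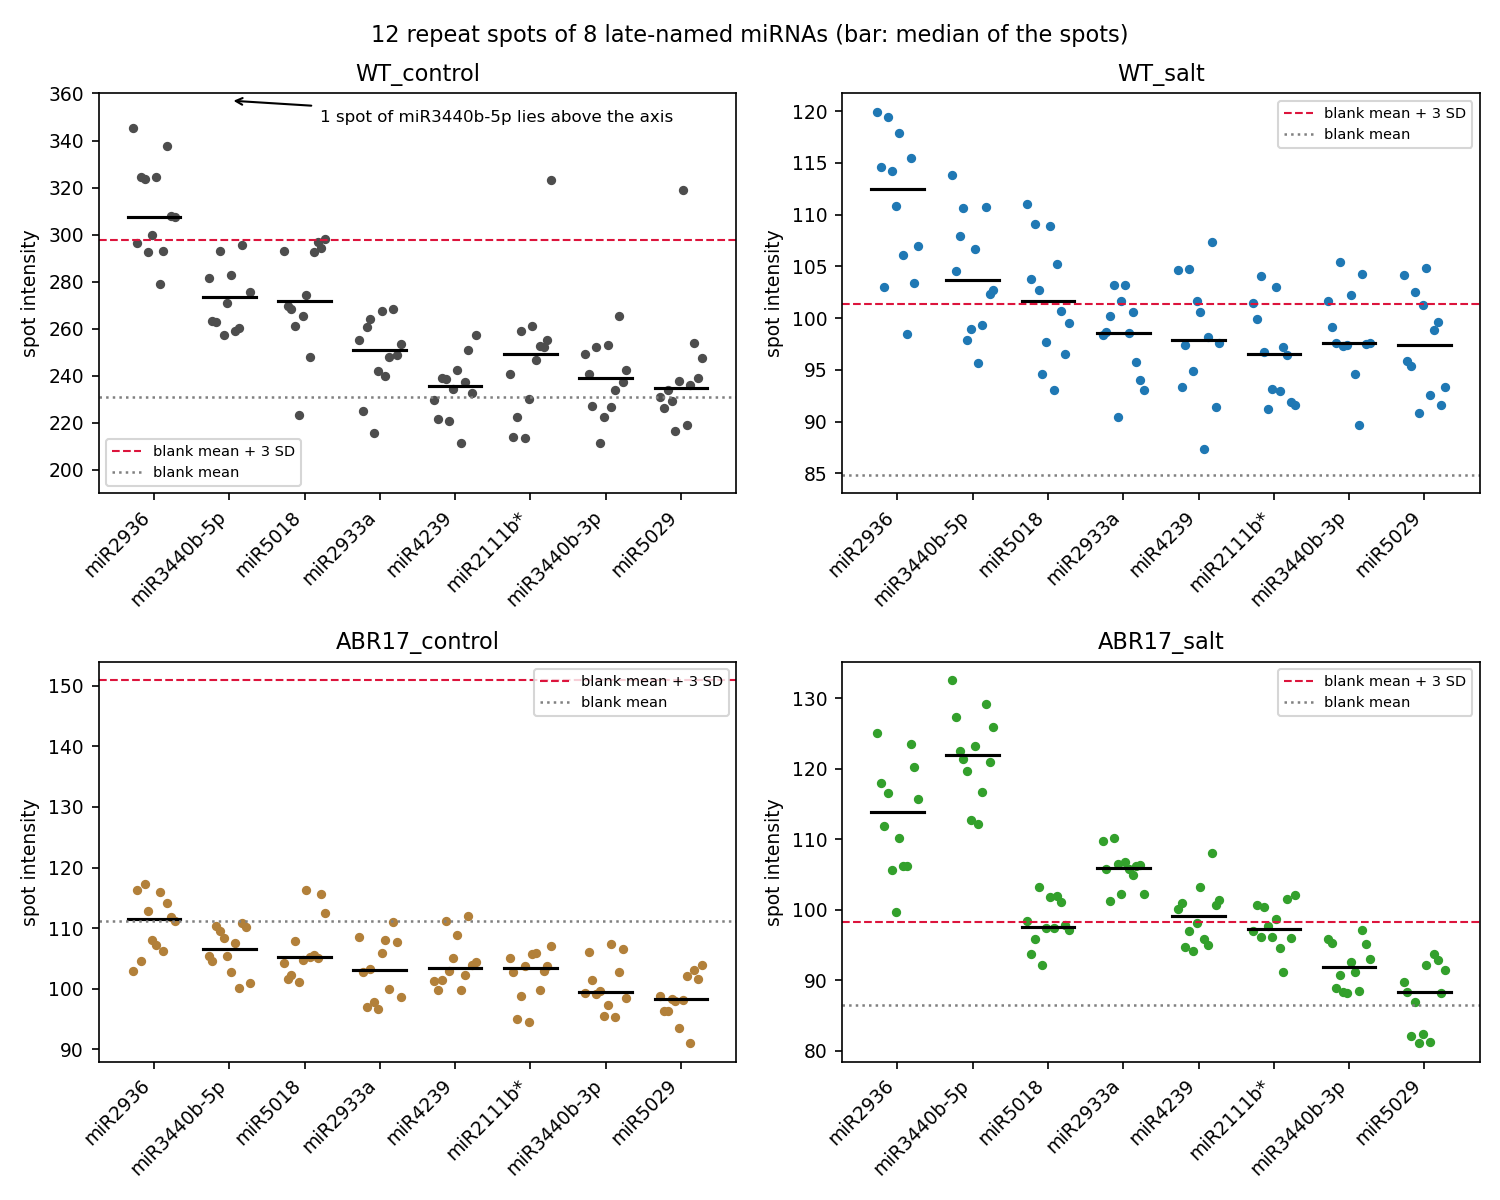
Intensity of the 12 repeat spots (points) and their median (bar) for 8 late-named miRNAs on each array, with the blank mean (dotted) and the blank mean plus 3 SD (dashed); each panel has its own linear axis. The spots of miR2936, miR3440b-5p and miR2933a lie wholly above the dashed line on ABR17_salt, 1 spot of miR3440b-5p (744) lies beyond the WT_control axis, and on ABR17_control no spot of the 8 reaches it.

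Heights were also taken as the intensity over the median member spot of the same block, which removes differences between blocks and needs no blank. They stay in each array's own intensity, where the blank SD was 22.2, 5.52, 13.2 and 3.92 from WT_control to ABR17_salt. Sizes of heights are therefore not comparable between arrays, here or below. For miR2936 the median height over the 12 blocks was 78.5 and 14.8 on WT_control and WT_salt and 8.77 and 23.2 on ABR17_control and ABR17_salt. For miR3440b-5p it was 42.9, 8.45, 5.49 and 31.1 in the same order. Both were detected on WT_salt and on ABR17_salt. Between these arrays their order turned: miR3440b-5p was above miR2936 in 2 of 12 blocks on WT_salt and in 12 of 12 on ABR17_salt. The pair was chosen after its values were seen, the levels belong to different probes, and the blocks are repeat prints of 1 hybridisation that do not speak to the spread between seedlings.

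The height of miR2933a was 14.9, 1.92, 1.12 and 14.8 in the order of the arrays, and it was detected on the last alone. That of miR5018 was 43.3, 4.53, 5.90 and 6.72, with detection on WT_salt alone. That of miR4239 was 0.75, 1.65, 2.65 and 8.84, with detection on ABR17_salt alone. Heights on the arrays without detection belong to levels that missed the detection rule and are not read as sizes. Some spots did pass the threshold there. These were 5 of 12 for miR5018 on ABR17_salt and 1 on WT_control. On WT_salt they were 4 for miR4239 and 3 for miR2933a.

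Neighbouring spots of some of these probes were bright. In each block miR3440b-5p lies next to miR390a, whose medians were 816, 258, 368 and 331, and miR2933a lies next to miR168a, at 1328, 675, 839 and 1049. Beside these, the height of miR2933a was 14.9, 1.92, 1.12 and 14.8 in the same order of arrays. That of miR3440b-5p was 42.9, 8.45, 5.49 and 31.1, each in the intensity of its own array. The probe of miR2936 has no such neighbour: the brightest beside it was that of miR169d, at 253, 105, 116 and 105. Whether light or RNA from neighbours adds to these spots was not tested.

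Shared sequence was set beside the levels, since probes for similar RNAs can take up one another's targets. The longest run of bases that miR2936 shares with any other miRNA on the array is one of 12 bases with miR5029, shown in capitals.
miR2936: cuugaGAGAGAGAACACagacg
miR5029: aauGAGAGAGAACACugcaaa
On none of the arrays was miR5029 detected. Its median ranked 25 of 48 and 17 on WT_control and WT_salt and 46 and 43 on ABR17_control and ABR17_salt, while miR2936 held rank 1 or 2. Of the bright miRNAs, miR173, which starts the production of trans-acting siRNAs, shares 8 bases with miR2936 and the same 8 with miR5029. Whether shared runs add to these signals was not tested. For miR3440b-5p, miR2933a and miR4239 the longest run shared with any other miRNA was 7 bases, and for miR5018 it was 8.

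Both strands were on the array for 5 precursors. The files call the second strand 3p or mark it with an asterisk. The longest run over which the strands of a pair are complementary is in capitals.
miR2111a: uaaucuGCAUCCugagguuua
miR2111a*: guccucgGGAUGCggauuacc
miR2112-5p: CGCAAAUGCGGAUAUcaaugu
miR2112-3p: cuuuAUAUCCGCAUUUGCGca
miR2934-5p: ucuuucugcaaacgCCUUGGA
miR2934-3p: caUCCAAGGuguuuguagaaa
miR3434: acuUGGCUGAUucuauuauu
miR3434*: ucagaguAUCAGCCAuguga
miR3440b-5p: uuuucuuggcccAUCCAcuuc
miR3440b-3p: UGGAUuggucaagggaagcgu

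The strands of miR3440b differed most. The 3p strand had medians of 239 and 97.6 on WT_control and WT_salt and 99.5 and 91.9 on ABR17_control and ABR17_salt and was detected on none. Within blocks, 5p exceeded 3p by a median of 32.9 and 5.19 on WT_control and WT_salt and 5.82 and 31.0 on ABR17_control and ABR17_salt. This held in 12, 12, 11 and 12 of the 12 blocks. On ABR17_salt alone the strands did not overlap, with 5p spots from 112 and 3p spots up to 97.2. The gap on ABR17_salt, 31.0, was near that on WT_control, whose blank SD was 22.2 against 3.92.

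In the other 4 pairs neither strand was detected on any array and the spots of the strands overlapped on every array. For miR2934 the 5p strand was the brighter by a median of 5.06 and 2.60 on WT_control and WT_salt and 4.28 and 2.10 on ABR17_control and ABR17_salt, in 9 to 11 of 12 blocks. For miR2112 the median of 5p minus 3p was −5.29, −1.56, −3.51 and −3.11, with 5p the brighter in 4, 3, 2 and 3 blocks. The phosphate-related miR2111a exceeded its partner by 8.94 on WT_control and 4.06 on WT_salt, in 11 and 10 blocks. On ABR17_control it was above in 5 blocks and on ABR17_salt in 8. For miR3434 the counts were 9, 8, 6 and 7 blocks. A pair's difference mixes the response of 2 probes with abundance, so these values describe the probes and not which strand was retained.

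**Figure D4:**
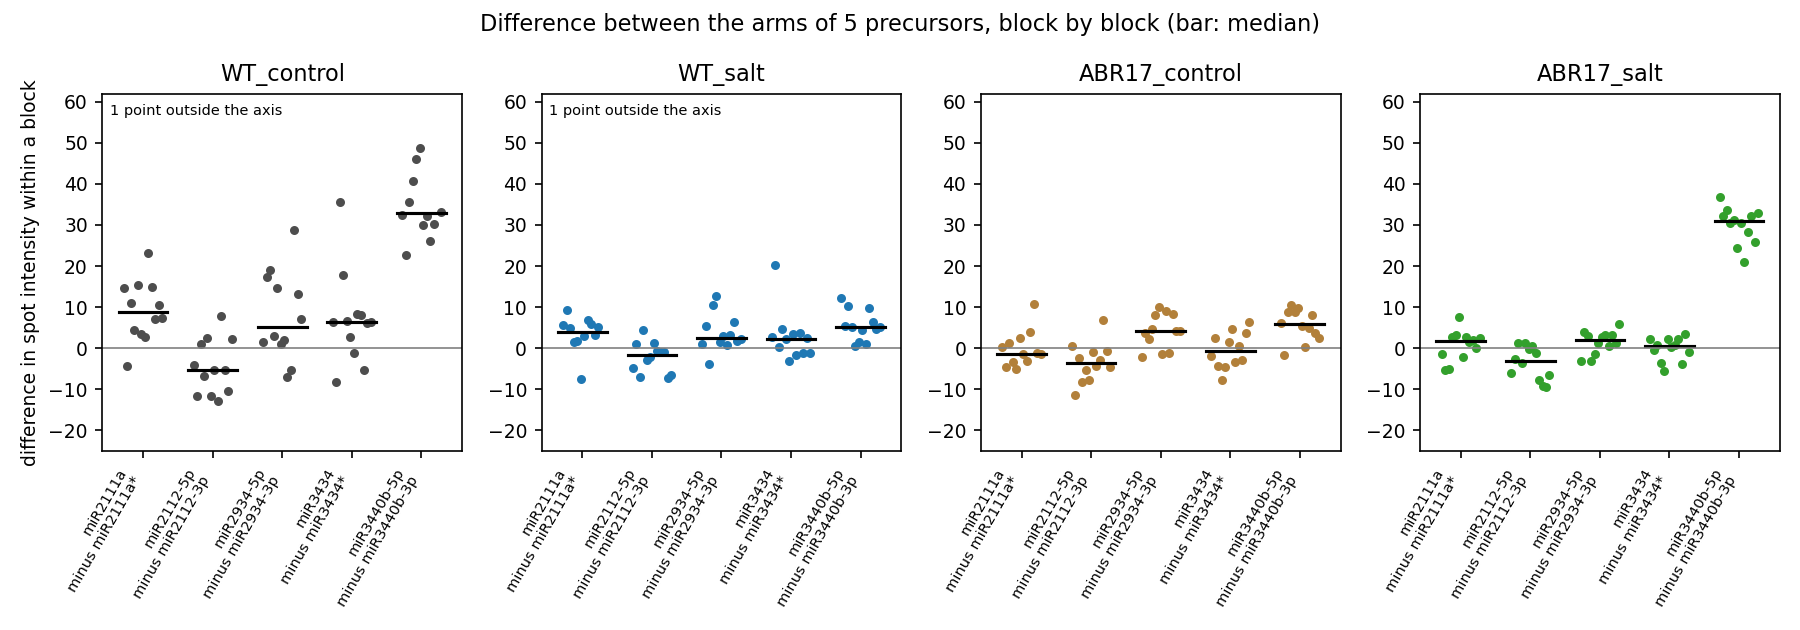
Difference in intensity between the strands of 5 precursors in each of the 12 printed blocks (points) and the median (bar), per array. The pair of miR3440b stands at 31.0 on ABR17_salt and 32.9 on WT_control, and the other pairs lie around 0.

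The partner strand of the second miR2111 gene, miR2111b*, came as near to detection, with 5 of 12 spots, as any member that was never called, a count it shares with miR4228. It shares its seed, UCCUCGG, with miR2111a*, the 1 seed that occurs more than once among the members (47 different seeds in 48 members), and the shared run of 10 bases is in capitals.
miR2111a*: gUCCUCGGGAUgcggauuacc
miR2111b*: aUCCUCGGGAUacaguuuacc
Counted from 1 at the 5′ end, the pair differ at G1A, G12A, G14A and A16U, with the base of miR2111a* first. On ABR17_salt 5 of 12 spots of miR2111b* passed the threshold (91.2 to 102, median 97.3) and all 12 were above their block median. Its median height over the block was 9.84 and −0.99 on WT_control and WT_salt and 0.29 and 7.00 on ABR17_control and ABR17_salt. In each block it lies next to miR167a, whose medians were 921, 223, 440 and 294.

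Products that overlap on 1 precursor, or paralogues with a shared stretch, were all undetected. These are miR1886.1 with miR1886.2, miR5015a with miR5015b, and miR5020a with miR5020b, shown with the shared run in capitals.
miR1886.1: ugagagaagUGAGAUGAAAUC
miR1886.2: UGAGAUGAAAUCuuugauugg
miR5015a: UUGGUGUUAUGuguagucuuc
miR5015b: ucuguuguugUUGGUGUUAUG
miR5020a: uggAAGAAGGUGAGAcuugca
miR5020b: auggcaugaAAGAAGGUGAGA
As all were undetected, these values do not show whether probes with runs of 12, 11 and 12 bases in common take up one another's targets. The medians of miR1886.1 and miR1886.2 were 229 and 230 on WT_control and 96.8 and 99.3 on WT_salt, and the seed of miR1886.2 is also that of miR774b. Those of miR5015a and miR5015b were 230 and 223 on WT_control, and 95.1 and 94.5 on WT_salt.

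The 43 members never detected had medians from 223 to 249 on WT_control, 93.1 to 101 on WT_salt, 97.5 to 104 on ABR17_control and 86.0 to 97.3 on ABR17_salt. On WT_control 40 members had no spot above the threshold and 7 undetected ones had 1 each, namely miR1888, miR2111b*, miR3440b-5p, miR3932a, miR5018, miR5019 and miR5029. On WT_salt 5 had none, 9 had 1, 9 had 2 and 17 had 3. There miR3440b-3p, miR3932a, miR4239 and miR5028 had 4 each and miR4228 had 5 (91.1 to 109, median 101), the highest count of an undetected member. On ABR17_control 47 had none and miR5023 had 1. On ABR17_salt 32 had none and 9 had 1, miR4228 had 2, and miR5018 and miR2111b* had 5 each.

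Over the 48 members the medians of any 2 arrays correlated across miRNAs at r = 0.712 to 0.869. Without the 5 detected members the range was 0.0936 to 0.493. The points share their probes, so this describes the probes on these arrays. Of the 48 members, 25 (52.1%) begin with U, against 58 of 78 (74.4%) of the miRNAs numbered under 500 and 65 of 86 (75.6%) of those numbered between 500 and 1800. At 21 bases are 41 of 48 (85.4%), against 76.9% and 76.7% of those 2 sets, and the rest are 2 of 20, 4 of 22 and 1 of 24 bases. Neither difference was tested. Of the 5 detected members, 3 are longer than 21 bases. The median GC content of members was 39.9% (19.05% to 61.9%). Its Spearman rho with the medians was 0.41 and 0.08 on WT_control and WT_salt and 0.20 and 0.29 on ABR17_control and ABR17_salt. Without the 5 detected members the rho was 0.33, −0.06, 0.10 and 0.19 in the same order.

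Single bright spots were found in 5 cases, defined as a spot above the threshold and at least 2 times the median of the other 11 spots of a probe that was not detected. On WT_salt 1 spot of miR5020b read 406 against a median of 94.2 for the others, which reached 103. A spot of miR2111a* read 293 against 96.6, and one of miR5013 read 201 against 97.3. On WT_control a spot of miR3440b-5p read 744 against 271, and on ABR17_control a spot of miR5023 read 259 against 102. None was seen on ABR17_salt. The same spot on the other arrays was not raised: that of miR5020b read 230 on WT_control, 102 on ABR17_control and 86.5 on ABR17_salt. Among the other 165 miRNAs there were 2, 6, 6 and 3 such spots on WT_control, WT_salt, ABR17_control and ABR17_salt, and blank spots of at least 2 times the blank median numbered 2, 1, 2 and 0.

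Members with such a spot stood high in the authors' deposited table, which gives 1 processed intensity per miRNA and array. On WT_salt miR5020b read 53.5 there, the highest of the 48, ahead of miR2936 at 39.4, miR2111a* at 34.7 and miR5013 at 25.3, while the median member read 9.25. The mean of the 12 spots of miR5020b over the blank mean was 34.5 with the bright spot and 8.47 without it. For miR2111a* the means were 26.5 and 9.95, and for miR5013 20.4 and 11.7. On ABR17_control miR5023 ranked second in the authors' deposited table at 27.2, behind miR2936 at 27.7. There its mean over the blank mean was 3.44 with the spot and −9.66 without it. For miR3440b-5p on WT_control the deposited value of 23.4 was under both the 81.1 found with its spot and the 41.8 found without it.

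**Figure D5:**
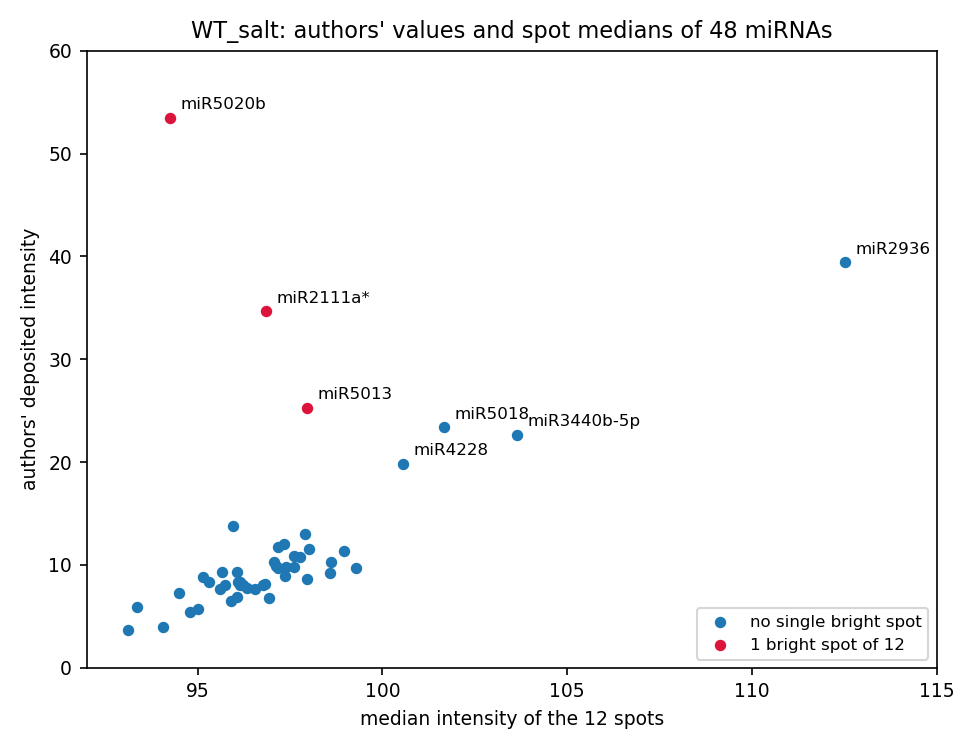
The authors' deposited intensity on WT_salt (y axis) against the median intensity of the 12 spots (x axis) for the 48 late-named miRNAs. The 3 red points each have 1 bright spot of 12 and read 53.5, 34.7 and 25.3 in the deposited table at medians of 94 to 98.

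Few late-named miRNAs could be compared between arrays, and none of those reached the size rule. On normalised levels, the size rule asked for detection on 1 or both arrays, a log2 difference of 1 or more in size, and repeat spots that did not overlap. For WT_salt against WT_control 0 of 3 members that entered were counted, with a value for 1 of the 3, where 3.45% of all 58 miRNAs that entered were counted higher and 5.17% lower. For ABR17_salt against ABR17_control it was 0 of 4, none of which had a value that could be counted, beside 1.69% higher and 0.0% lower of 59. For ABR17_control against WT_control it was 0 of 1, again with no value, beside 5.13% higher and 5.13% lower of 39. For ABR17_salt against WT_salt it was 0 of 5, of which 2 were measured and 3 were bounds, beside 0.0% higher and 0.0% lower of 62. Normalised levels of all 48 members lay between 6.05 and 6.69 on the 4 arrays, so none could reach a difference of 1. With that, and with no value in 2 of the comparisons, these counts of 0 are no result about the members.

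The normalised log2 level of miR2936 was 6.67 on WT_control and 6.69 on WT_salt, a difference of 0.02 ± 0.06 (SE of repeat spots). On ABR17_salt it was 6.60, so that it differed from WT_salt by −0.10 ± 0.05. Levels of miR3440b-5p were 6.52 and 6.51 on WT_control and WT_salt and 6.32 and 6.69 on ABR17_control and ABR17_salt. Its difference between ABR17_salt and WT_salt was 0.18 ± 0.04, with overlapping spots. The repeat spots of miR3440b-5p on ABR17_salt and ABR17_control did not overlap. Those of miR2933a (6.49 and 6.21) did not overlap after normalisation, but overlapped as deposited, without background correction and with scaling on the 75th percentile. No fold is given for either, as neither was detected on ABR17_control, where the lowest detected level lay above both levels seen on ABR17_salt. Against WT_salt, miR2933a was higher on ABR17_salt by at least 0.21 on the log2 scale, with no overlap of spots. That bound fell to 0.081 without normalisation and 0.112 with scaling on the 75th percentile, both with overlap. For miR4239 the bound was 0.05 with overlap, and there was no value without normalisation, with scaling on the 75th percentile or with the median of spots.

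In the authors' deposited table miR3440b-5p read 23.4 and 22.7 for WT_control and WT_salt and 18.6 and 48.1 for ABR17_control and ABR17_salt. There miR2933a read 16.5, 10.3, 13.5 and 28.6, and miR2936 read 35.3, 39.4, 27.7 and 38.5. On that scale the differences of miR3440b-5p and miR2933a between ABR17_salt and WT_salt were 1.09 and at least 1.11 on the log2 scale, past the size asked for, although that table has no repeat spots to compare. The sign for miR2936 between salt and no salt in the wild type turned without normalisation (−0.92) and with scaling on the 75th percentile (−0.39), and that between ABR17_salt and WT_salt turned as well (0.025 and 0.057). How many members were detected on WT_salt rested on the threshold. The 3 became 0 with 6 blank SD or with all 12 spots required, 15 with a threshold from the blank median and 18 with blanks of the same strip.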

How the data were processed

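Per the labels' protocols, seedling RNA enriched for small RNA was tagged at its 3' end and stained with Cy3, and hybridised by a service provider. The authors deposited 4 files of spot values, 1 per array, whose mean density is a linear intensity with no background subtracted, and a table of 1 processed intensity per miRNA and array, with background correction and scaling not stated. Although the design text mentions 3 biological replicates, 1 array per group was analysed, and no source used here says whether RNA was pooled.

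Members were taken by probe name, without the bright miR5021, and groups from the labels. Members, lists and tests were chosen with earlier results of these data known. The text names every detected member, every strand pair, the 5 undetected members with the most spots above the threshold per array, single bright spots, and members sharing a seed or a stretch of sequence. The comparisons between leading members, block by block, and the thresholds per strip were added after seeing the data. Thresholds used the blank spots of each array. For differences, spots were corrected with normexp in limma 3.58.1 (R 4.3.3, offset 50), turned to log2, averaged over 12 spots and quantile normalised over 213 miRNAs. The offset draws dim miRNAs together, and equal ranks get equal values. Where 1 array of a pair lacked detection, it entered at the higher of its own level and that array's lowest detected level, and the difference is given as "at least", or not at all where this left none. The working of the detection and bright-spot rules was checked on simulated data. There probes were raised far past the threshold on an even background, so calls near the threshold were not tested. SD and SE come from repeat spots and cover 1 hybridisation. Depth does not apply to arrays, and no test between groups was run. Alternatives covered the threshold, the spot rule, background correction, scaling, the median of spots and the deposited table. The density SD per spot was not used.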

Additional observations from a re-analysis of the deposited data

How the results depend on the processing

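No paired analysis was possible because each group has 1 array and no result comes from a test between groups. Detected members (1 on WT_control, 3 on WT_salt, 4 on ABR17_salt) became 0, 0 and 2 with the blank mean plus 6 SD and 3, 15 and 5 with the blank median plus 3 scaled MAD. Taking the mean of the 12 spots gave 2, 6 and 4, where the members added were those with a single bright spot. Requiring all 12 spots gave 0, 0 and 3. Blanks of the same strip, an alternative chosen after seeing the data, gave 1, 18 and 6. ABR17_control stayed at 0 under each of these. The share of member spots above the threshold became 0.174% (WT_control), 1.04% (WT_salt) and 3.65% (ABR17_salt) with 6 SD. It became 5.21% (WT_control) and 41.1% (WT_salt) with the blank median, and 42.4% (WT_salt) with blanks of the same strip. Single bright spots at 3 times the median of the others fell to 0 on WT_control and 0 on ABR17_control. The authors' deposited values counted 2 members higher for ABR17_salt against WT_salt, miR3440b-5p (1.09) and miR2933a (1.11), and no other alternative counted any in the 4 comparisons. The log2 difference of miR2936 turned sign for WT_salt against WT_control without normalisation (−0.92) and with scaling on the 75th percentile (−0.39), and for ABR17_salt against WT_salt with both (0.025 and 0.057). Without background correction the normalised levels, on a scale of their own, were 7.21 (miR2936, WT_control and WT_salt), 7.16 (miR2936, ABR17_salt), 7.09 (miR3440b-5p, WT_salt), 7.23 (miR3440b-5p, ABR17_salt), 7.09 (miR2933a, ABR17_salt), 7.00 (miR4239, ABR17_salt) and 7.00 (miR5018, WT_salt). The cause of the other moves was not tested. Signal over background limits all values, as most members lay within 3 blank SD of the blanks.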

Other observations

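Late-named miRNAs occupy fixed columns of each printed block, in the order of their numbers, and the block position moved with the level on ABR17_salt. There the undetected members in the columns 2 and 3 of a block (11 and 9 miRNAs) had a median spot of 91.4 and 91.7. The 7 members in the column 6, miR5023 to miR5029, had a median spot of 88.2. Undetected miRNAs numbered between 500 and 1800 read 89.4 in that same column and 87.6 to 87.8 in the 3 columns after it. On WT_salt the same columns differed less, at 96.6, 97.3 and 96.5 for the members. Position and sequence cannot be told apart here, since each miRNA keeps its place in all 12 blocks.

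In RefSeq's gene table for TAIR10.1, some members are genes next to each other. MIR5020b (AT4G05855) and MIR5020a (AT4G05860) follow each other with 0 genes between, as do MIR4239 (AT4G07000) and MIR1887 (AT4G07005), and MIR5022 (AT1G08337) and MIR4227 (AT1G08343). MIR2939 (AT5G07065) and MIR4243 (AT5G07075), and MIR5023 (AT3G03235) and MIR2934 (AT3G03245), have 1 gene between. Of the first pairs only miR4239 was detected, on ABR17_salt. Its neighbour miR1887 had a median of 91.1 there, with 1 of 12 spots above the threshold.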
